A study of Mus musculus with 7 samples.

Results

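The BCL2 family members described here are 10 of the 48440 genes in the deposited tables, taken by gene name. They are the survival genes Bcl2, Bcl2l1 (which encodes BCL-XL), Mcl1 and the A1 copies Bcl2a1b and Bcl2a1d, the pore-forming genes Bax and Bak1, and the BH3-only genes Bcl2l11 (BIM), Bbc3 (PUMA) and Pmaip1 (NOXA). All 10 had a row in every table, and all 10 passed the filter on low counts, which kept 12261 genes. RNA was sequenced from CD11b+ lung-migratory dendritic cells, the cells that carry inhaled material to the draining lymph node and present it to T cells there. They were sorted from the mediastinal node of B6 mice by the gate B220-CD64-CD103-CD11c+MHCIIhiCD11b+. There were 4 libraries from infants of 2 to 3 weeks and 3 libraries from adults of 7 weeks, and mice of both ages had received house dust mite allergen (HDM) together with LPS, a bacterial cell wall product, by the intranasal route 24 hours before. No unsensitized mice are among the samples used here, so the values compare ages after sensitization only. Whether a library came from 1 animal or from several is not in the labels, and every p-value rests on library-to-library spread alone, which may be technical.

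The family decides whether a cell's mitochondria stay intact. BAX and BAK form pores in the outer mitochondrial membrane and release cytochrome c, survival members such as BCL2, BCL-XL, MCL1 and A1 hold them in check, and BH3-only proteins bind the survival members or act on BAX and BAK directly. In dendritic cells lifespan is known to depend on this balance, with BIM and BCL2 as the best studied pair. A1 is a known target of NF-kB after microbial signals, and MCL1 and NOXA are short-lived proteins that bind each other.

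A short stretch of coding sequence, the core of the BH3 region, encodes the part through which the death members bind survival members. Survival members such as Mcl1 hold such a core too. It is printed for some of the members whose levels are set against each other below. The bases are from GENCODE M21 transcripts (GRCm38, mm10), and capitals mark the 6 core codons: leucine, then any pair of codons, then isoleucine, methionine, valine or alanine, then glycine or alanine, then aspartate.
Bbc3, chr7:16313758-16313805, plus strand: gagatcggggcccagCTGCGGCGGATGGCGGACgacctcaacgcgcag
Bcl2l11, chr2:128147135-128147182, plus strand: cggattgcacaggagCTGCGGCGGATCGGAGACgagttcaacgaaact
Bax, chr7:45465991-45466038, minus strand: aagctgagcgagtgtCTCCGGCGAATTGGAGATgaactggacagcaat
Mcl1, chr3:95659421-95659468, plus strand: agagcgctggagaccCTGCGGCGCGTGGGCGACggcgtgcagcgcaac
The codon pattern was written to cover known cores. It occurred once in the longest coding sequence of Bcl2, Bcl2l1, Mcl1, Bax, Bak1, Bcl2l11 and Bbc3, at 2 places in Pmaip1 and nowhere in the Bcl2a1 copies. Of 21591 protein-coding genes, 5.74% held it, and of the 8899 with a coding sequence of at most 1000 bases, 2.34% did.

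The Bcl2a1 copies lie on chromosome 9 and are nearly the same gene, so which copy a read is given to rests on few bases. The first 120 coding bases of 3 copies are shown for that reason, with capitals where the copies are not all alike.
Bcl2a1b, chr9:89199360-89199479, plus strand: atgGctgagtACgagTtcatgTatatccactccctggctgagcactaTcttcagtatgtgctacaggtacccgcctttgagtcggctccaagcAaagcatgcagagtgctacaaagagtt
Bcl2a1d, chr9:88731600-88731719, minus strand: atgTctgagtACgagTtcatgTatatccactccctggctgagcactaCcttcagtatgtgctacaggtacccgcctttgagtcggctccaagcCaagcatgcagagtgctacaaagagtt
Bcl2a1a, chr9:88957051-88957170, plus strand: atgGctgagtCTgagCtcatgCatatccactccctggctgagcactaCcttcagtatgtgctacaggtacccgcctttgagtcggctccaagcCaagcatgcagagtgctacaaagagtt
Over their 516 coding bases, 12 positions differ among the copies, 7 of them in the stretch shown. Bcl2a1b and Bcl2a1d differ at 6 positions and are 98.8% identical. Bcl2a1a, which is not a member but shares reads with them, differs from Bcl2a1b at 11 positions and from Bcl2a1d at 7.

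Infant libraries held 18022302 to 20377361 exon reads and adult libraries 20064331 to 22316484. Among the markers of the labelled cell type, Cd74 lay at 20445 to 34513 CPM (read counts scaled to library size) in infants and 18525 to 23971 CPM in adults, and Ccr7, the receptor that guides migrating dendritic cells, at 4599 to 5218 CPM in infants and 5518 to 6392 CPM in adults. Lower in every infant library, as Ccr7 was, were also Zbtb46 (163 to 201 CPM against 217 to 242 in adults), Flt3 (147 to 355 against 405 to 441) and Ccl17 (168 to 270 against 289 to 657). The other markers of this list of 13 overlapped between the ages. The list's median log2 fold change, infant over adult, was -0.24, and 0 were called by the edgeR test described below. The part of this in the members' values was not tested. For Itgam, which encodes the CD11b of the gate, the entry named Itgam_1 was low, at 9.83 to 21.2 CPM in infants and 15.7 to 17.5 CPM in adults. These values cover that entry only. Genes of cell types outside the gate were present too: the macrophage and monocyte list of 13 genes summed to 3126 to 7343 CPM in infants and 2997 to 5127 CPM in adults, most of it Lyz2, and the B cell list of 9 genes to 322 to 585 CPM in infants and 279 to 326 CPM in adults, most of it Ighm. Their part in the members' values was not tested. Of the genes of surface markers that the gate excludes, Itgae, which encodes CD103, lay at 0.586 to 1.26 CPM in infants and 1.39 to 3.24 CPM in adults. Fcgr1, which encodes CD64, lay at 8.63 to 31.6 CPM in infants and 9.74 to 23.2 CPM in adults, near the level of the Itgam_1 entry. Ptprc, which encodes B220 among other forms, lay at 447 to 675 CPM in infants and 655 to 708 CPM in adults. Infant 2 stood apart on the first principal component and held 13539 CPM of the nuclear RNA Malat1, against 3108 to 3728 CPM in the other infants. The nuclear RNA Neat1 went the other way, at 83.1 CPM in infant 2, the lowest of the 7 libraries, against 95.2 to 106.7 CPM in the other infants. The table of adult 3 carries an internal library name built unlike those of the other tables. Fold changes that either library moved by over 1.5 times are given with and without it where a gene is described.

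The highest member exceeded the lowest 6033-fold in infants and 3373-fold in adults, and the order of the levels was much the same at both ages. These folds are rough, as the highest, Bcl2a1b, shares reads with its copies. The lowest, Bcl2, had only 23 to 69 exon reads in infants and 71 to 95 in adults. RPKM, read counts scaled to exon length and library size, allows levels of different genes to be compared. In infants the mean order from high to low was Bcl2a1b, Bcl2a1d, Bax, Pmaip1, Mcl1, Bcl2l1, Bbc3, Bcl2l11, Bak1 and Bcl2. In adults Pmaip1 and Mcl1 stood above Bax, and the other places were the same. The ranges over libraries overlapped for Bcl2a1b and Bcl2a1d, Bax and Pmaip1, and Pmaip1 and Mcl1 in infants, and for Pmaip1 and Mcl1 and for Bbc3 and Bcl2l11 in adults. Within each infant library, though, Bcl2a1b exceeded Bcl2a1d (by 1.31 to 1.45 times) and Bax exceeded Pmaip1 (by 1.10 to 1.51 times). Reads that were not unique numbered nearly alike for Bcl2a1b and Bcl2a1d, so the excess of Bcl2a1b lay largely in unique reads. How many reads can be unique differs between the copies, so their order need not be that of their transcripts. All other neighbours in the order had ranges that did not overlap.

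**Figure D1:**
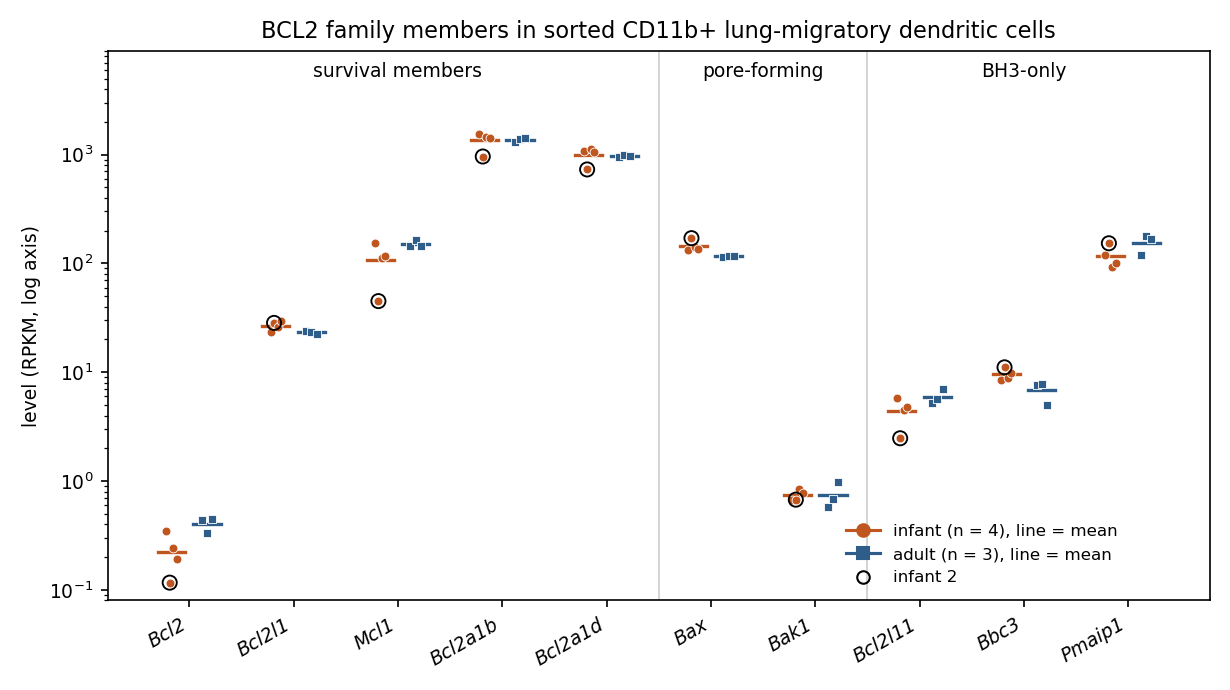
Level of each member in RPKM (log axis) by library, with infants in orange to the left of adults in blue, lines at the group means and infant 2 circled. The Bcl2a1 copies stand highest, Bak1 and Bcl2 lowest, and Bax and Bbc3 are the members whose infant points all lie above the adult points.

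With p-values from the quasi-likelihood test of edgeR, adjusted after Benjamini and Hochberg over 12261 genes, 0 of the 10 members passed an adjusted p of 0.05 in exon reads, and DESeq2 called 0 as well. The same edgeR test called 0.0163% of all genes, 0.00816% in each direction, and DESeq2 called 1.57%. In unique exon reads edgeR called 0.017% of all genes, 0.00851% in each direction, and DESeq2 1.67%, and 0 members passed in either. At an unadjusted edgeR p under 0.05 there were 3 members, Bcl2, Bax and Bbc3, where 13.3% of all genes met that mark. The groups did not overlap for 2 members, Bax and Bbc3, both with infants above adults, which held for 7.97% of all genes, and adults lay above infants for 0 members, against 7.58% of all genes. Without infant 2 the groups did not overlap for 5 members, beside 21.3% of all genes. The median log2 fold change, infant over adult, was 0.01 over the members and 0.0016 over all genes, while the median of its absolute size was 0.37 over the members and 0.23 over all genes.

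**Figure D2:**
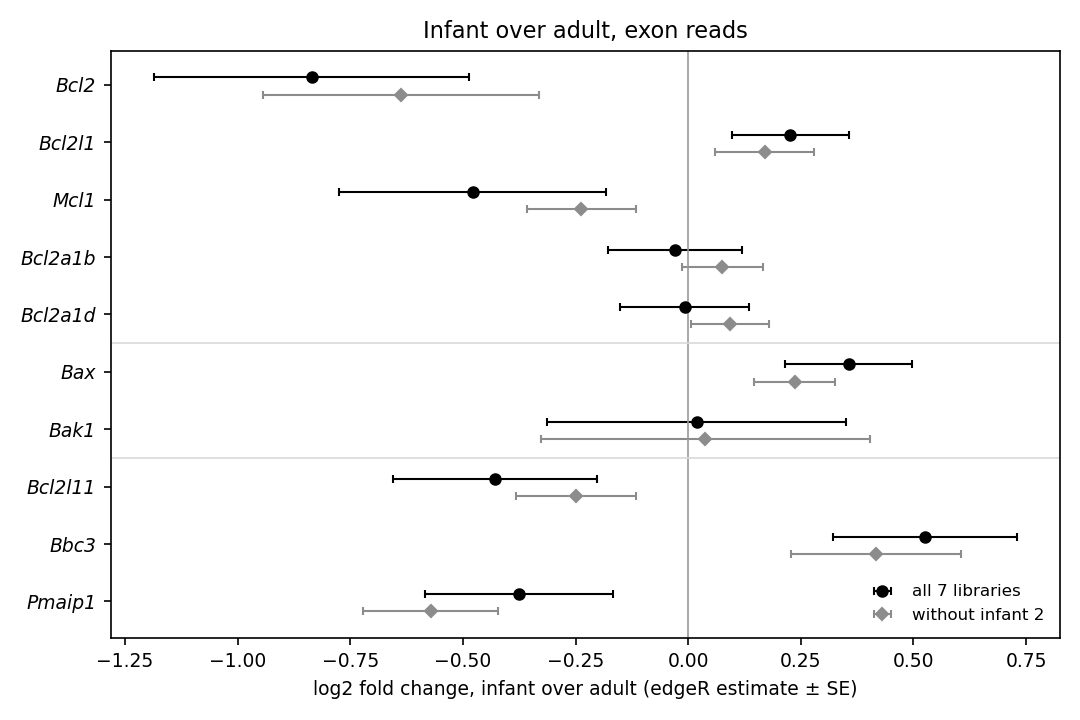
Fold change of each member on the log2 scale, infant over adult, with its standard error, from edgeR on total exon reads (unique exon reads for Bcl2a1b and Bcl2a1d). Black points use all 7 libraries and grey diamonds leave out infant 2, which brings Mcl1 and Bcl2l11 nearer to 0 and takes Pmaip1 further from it.

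Among the survival members, A1 supplied most of the transcript, and its levels overlapped between the ages. Bcl2a1b (ENSMUSG00000089929, chromosome 9, 89199209 to 89207827, plus strand) had 1557, 960, 1465 and 1422 RPKM in the infant libraries, against 1298, 1379 and 1418 RPKM in the adult libraries. The groups overlapped, with infant 2 lowest of all 7 and the other infants above every adult. Bcl2a1d (ENSMUSG00000099974, chromosome 9, 88723285 to 88731914, minus strand) had 1077, 730, 1120 and 1046 RPKM in infants, against 949, 991 and 977 RPKM in adults. Its libraries fell in the same pattern.

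Uniquely mapped reads separate the copies better, though they are fewer. Of the exon reads of Bcl2a1b, 52.9% ± 0.968 were unique in infants and 54.0% ± 0.244 in adults (SD, n = 4 and 3), and for Bcl2a1d the shares were 34.5% ± 0.928 in infants and 35.8% ± 0.309 in adults. In unique exon reads Bcl2a1b averaged 687 ± 112 CPM in infants and 701 ± 24.9 CPM in adults (SD, n = 4 and 3), a log2 fold change of -0.03 (with SE 0.15 and edgeR adjusted p = 0.939). Bcl2a1d averaged 348 ± 53.9 CPM in infants and 350 ± 6.92 CPM in adults, a log2 fold change of -0.01 (with SE 0.14 and edgeR adjusted p = 0.985). Both estimates lay within their standard errors of 0, and their signs turned with the setting: without infant 2 they were 0.08 and 0.09, and in total exon reads 0.01 and 0.05. A protein-coding gene of the same strand, Gm29094, overlaps Bcl2a1b on the annotation and held 167 to 208 exon reads in infants and 230 to 335 in adults, small beside the 16915 to 27706 reads of Bcl2a1b in infants and 24817 to 26224 in adults.

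The split among the A1 copies separated the ages, without passing a test. Of the unique exon reads of Bcl2a1a, Bcl2a1b and Bcl2a1d together, Bcl2a1a took 31.7, 35.7, 33.6 and 32.4% in the infant libraries, against 27.6, 31.0 and 25.6% in the adult libraries. All 4 infants thus lay above all 3 adults, by 5.25 percentage points on average. The exact two-sided permutation test gave p = 0.0571, the smallest p that 35 splits of 4 and 3 libraries allow, so this test cannot pass 0.05, and the Benjamini-Hochberg adjusted p over the 3 copies was 0.0857. The same order held in total exon reads, at 21.1 to 23.7% in infants and 16.8 to 20.6% in adults, and in unique reads over exon junctions, at 21.002 to 23.8% in infants and 16.5 to 20.01% in adults. Total reads contain the unique reads and junction reads are a part of them, so these counts are no separate support. Bcl2a1d's share lay lower in every infant library, at 21.9 to 23.0% of unique reads against 23.1 to 24.6% in adults, but the shares of the copies sum to 100%, so this is not a separate result, and its groups overlapped in total exon reads and in junction reads. Bcl2a1b's share averaged 44.2% ± 1.63 in infants and 48.0% ± 2.27 in adults (SD, n = 4 and 3), and its groups overlapped. Of the exon reads of Bcl2a1a, 79.4% were unique in infants and 79.2% in adults, a larger part than for the other copies. Coding bases found in 1 copy only number 6 in Bcl2a1a, 5 in Bcl2a1b and 1 in Bcl2a1d. Set against each other, the shares thus depend on how many reads of a copy can be unique, and they do not give the make-up of A1 transcript. As a level, Bcl2a1a averaged 514 ± 54.0 CPM of unique reads in infants and 412 ± 59.7 CPM in adults, a log2 fold change of 0.32 (with SE 0.14 and edgeR adjusted p = 0.372). The fourth copy, Bcl2a1c, had at most 4 reads in a library.

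**Figure D3:**
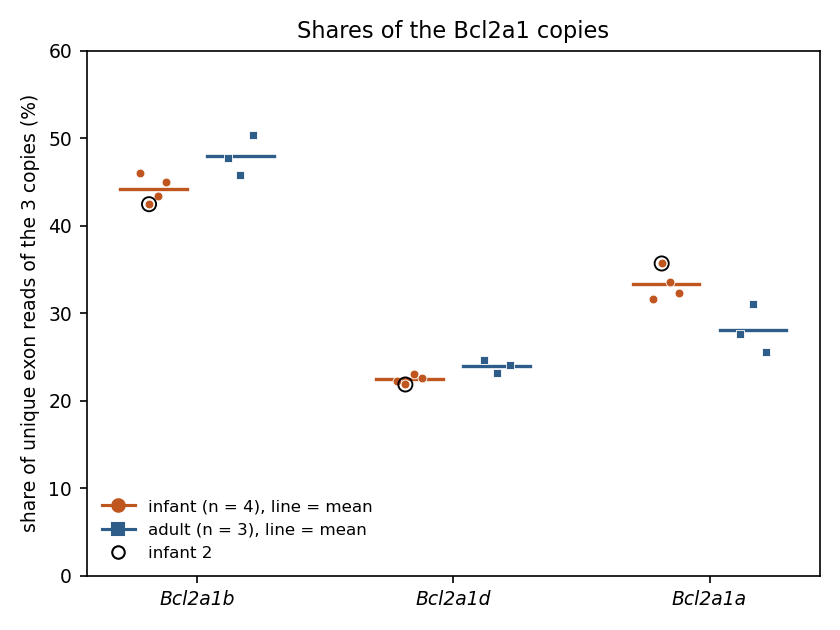
Share of each Bcl2a1 copy in the unique exon reads of the 3 copies, in percent, by library, with infants in orange to the left of adults in blue and lines at the means. Bcl2a1a takes 31.7 to 35.7% in infants and 25.6 to 31.0% in adults.

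Mcl1 (ENSMUSG00000038612, chromosome 3, 95658788 to 95663176, plus strand) encodes the short-lived survival protein of the family. It had 155, 45.0, 113 and 117 RPKM in the infant libraries, against 144, 164 and 144 RPKM in the adult libraries. Infant 1 lay within the adult range and the other 3 infants below it, with infant 2 at 35.2% of the mean of the other infants. The log2 fold change was -0.48 (with SE 0.30 and edgeR adjusted p = 0.475), and without infant 2 it was -0.24 (SE 0.12, adjusted p = 0.394). Intron reads, which come largely from unspliced transcripts, showed the same single low library: Mcl1 had 787, 236, 628 and 637 CPM of intron reads in infants, against 675, 688 and 712 CPM in adults, and introns held 7.04% ± 0.288 of the gene's reads in infants and 6.70% ± 0.487 in adults (SD, n = 4 and 3).

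Bcl2l1 (ENSMUSG00000007659, chromosome 2, 152780668 to 152831728, minus strand) encodes BCL-XL, the survival protein that also keeps neurons and platelets alive. Its level was 23.4, 28.4, 25.9 and 29.4 RPKM in infants, against 23.9, 23.6 and 22.7 RPKM in adults. Infants 2, 3 and 4 lay above every adult and infant 1 among them. The exon log2 fold change was 0.23 (with SE 0.13 and edgeR adjusted p = 0.446). In intron reads every infant lay above every adult, which held for 4.94% of all genes, at 414, 670, 422 and 469 CPM in infants against 302, 273 and 325 CPM in adults. That difference, a log2 fold change of 0.72 (with SE 0.20 and edgeR adjusted p = 0.135 and 0.0532 in DESeq2), did not pass the threshold.

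Bcl2 (ENSMUSG00000057329, chromosome 1, 106538178 to 106714274, minus strand), the founding survival gene, was the lowest member. The infant libraries had 69, 23, 42 and 35 exon reads, or 0.346, 0.116, 0.241 and 0.192 RPKM, against 95, 71 and 87 reads, or 0.437, 0.333 and 0.444 RPKM, in the adult libraries. Infant 1 lay just above the lowest adult, and the other infants below all adults. The log2 fold change was -0.84 (with SE 0.35, unadjusted p = 0.0379 and edgeR adjusted p = 0.358). In unique exon reads adults lay above infants without overlap, as 7.92% of all genes did (7.69% did with infants above), at 0.816 to 2.28 CPM in infants and 2.36 to 3.46 CPM in adults, with a log2 fold change of -0.95 (with SE 0.38 and edgeR adjusted p = 0.345). At most 4 unique reads in a library crossed an exon junction of Bcl2, and an antisense transcript overlaps the gene, so the strand of these reads cannot be told apart. T cells are rich in BCL2. The summed T cell list of 10 genes lay at 11.1 to 18.95 CPM in infants and 10.5 to 19.4 CPM in adults. Bcl2 itself lay at 1.21 to 3.27 CPM in infants and 3.20 to 4.27 CPM in adults in total exon reads. The part of such cells in the Bcl2 reads was not tested, and in bulk libraries fewer cells of a type and less RNA per cell cannot be told apart.

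Of the pore-forming genes, Bax was abundant and few reads were counted to Bak1. Bax (ENSMUSG00000003873, chromosome 7, 45461697 to 45466898, minus strand) had 132, 171, 141 and 136 RPKM in the infant libraries, against 114, 116 and 118 RPKM in the adult libraries. Every infant lay above every adult, infant 2 highest. The log2 fold change was 0.36 (with SE 0.14, unadjusted p = 0.0305 and edgeR adjusted p = 0.339), and 0.24 (SE 0.09, adjusted p = 0.270) without infant 2. Relative to its mean, Bax varied least of the members in adults, with an SD of 1.82 RPKM around 116 RPKM. Intron reads did not follow the exon reads, with 33, 48, 27 and 41 in infants against 43, 76 and 37 in adults. Bak1 (ENSMUSG00000057789, chromosome 17, 27019810 to 27029009, minus strand) had 35, 35, 39 and 37 exon reads in infants, against 33, 38 and 51 in adults, or 0.742 ± 0.0874 RPKM in infants and 0.748 ± 0.214 RPKM in adults (SD, n = 4 and 3). Its log2 fold change of 0.02 (with SE 0.33 and edgeR adjusted p = 0.984) turned sign with the filter and with scaling and was 0.26 without adult 3. At 33 to 51 reads a library, a difference of that size was not detectable for Bak1. All of its 8 to 20 unique exon reads per library crossed a junction, 0 unique reads lay in its introns, and Ggnbp1 overlaps the gene on the annotation. How far reads were shared was not tested, so the low RPKM cannot be read as low expression of Bak1.

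Of the BH3-only genes, 0 passed in exon reads. Bbc3 (ENSMUSG00000002083, chromosome 7, 16308393 to 16318205, plus strand) encodes PUMA, a classical p53 target that binds all survival members. Its level was 8.52, 11.1, 8.87 and 9.89 RPKM in infants, against 7.64, 7.79 and 5.01 RPKM in adults. Every infant lay above every adult, and adult 3 was lowest. Among the members it had the smallest p, with a log2 fold change of 0.53 (with SE 0.20, unadjusted p = 0.0268 and edgeR adjusted p = 0.332), and without adult 3 the log2 fold change was 0.34 (adjusted p = 0.574). Introns held 4.37, 5.40, 5.77 and 4.79% of the gene's reads in infants, against 6.78, 8.77 and 13.0% in adults, so the share was lower in every infant library, on 18 to 37 intron reads, as for 6.35% of the genes tested in introns.

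The tested genes whose pattern over the 7 libraries lay nearest to that of Bbc3 were Hlx, Gtpbp3 and Nipal3. Their log2 CPM, centred on each gene's mean, differed from that of Bbc3 by a root mean square of 0.037, 0.043 and 0.085, where the median gene differed by 0.461 and the Bbc3 pattern itself had a size of 0.36. The log2 fold changes were 0.49 for Hlx (SE 0.18), 0.56 for Gtpbp3 (SE 0.24) and 0.55 for Nipal3 (SE 0.27), with edgeR adjusted p of 0.317, 0.359 and 0.395. The genes were chosen for their likeness to Bbc3 in these same libraries, so fold changes near its own follow from the choice.

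Bcl2l11 (ENSMUSG00000027381, chromosome 2, 128126038 to 128162547, plus strand) encodes BIM, the BH3-only protein best known for ending dendritic cell and lymphocyte life. The infant libraries had 5.78, 2.47, 4.49 and 4.79 RPKM, against 5.24, 5.68 and 6.99 RPKM in the adult libraries. Infants 2, 3 and 4 lay below every adult and infant 1 among them. The log2 fold change was -0.43 (with SE 0.23 and edgeR adjusted p = 0.423), without infant 2 it was -0.25 (edgeR adjusted p = 0.411), and leaving out infant 2 and adult 3 together, an alternative chosen after the data were seen, gave -0.12 (edgeR adjusted p = 0.709). In intron reads the estimate had the other sign, at 0.31 (with SE 0.24 and edgeR adjusted p = 0.693), on 91 to 145 reads in infants and 101 to 162 in adults.

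Pmaip1 (ENSMUSG00000024521, chromosome 18, 66458604 to 66465550, plus strand) encodes NOXA, the BH3-only protein that pairs with MCL1 and A1, and its intron reads gave the clearest difference among the members. In exons it had 120, 153, 93.5 and 100.3 RPKM in infants, against 119, 180.2 and 167 RPKM in adults. These groups overlapped, with infants 3 and 4 lowest, and the log2 fold change was -0.38 (with SE 0.21 and edgeR adjusted p = 0.436). Without infant 2, the highest infant, the log2 fold change was -0.57 (with SE 0.15, unadjusted p = 0.00328 and edgeR adjusted p = 0.1695), and the remaining infants lay below every adult in CPM.

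Intron reads of Pmaip1 numbered 1046, 853, 359 and 611 in the infant libraries, against 1496, 2597 and 1615 in the adult libraries. Scaled to the intron reads of each library, the level fell to 694 ± 207 CPM in infants, against 1531 ± 239 CPM in adults (SD, n = 4 and 3), and every infant lay below every adult, as for 6.29% of all genes. The log2 fold change was -1.14 (with SE 0.22 and edgeR adjusted p = 0.0290 and 0.0012 in DESeq2), on a fit to 9602 genes, of which edgeR called 0.542%, 0.479% as lower and 0.0625% as higher in infants, and 1.6% by DESeq2. The comparison of intron reads was added after the data were seen. Of the 8 members outside the Bcl2a1 copies, whose intron reads in Bcl2a1b and Bcl2a1d are hardly ever unique, 7 could be tested in introns, and Pmaip1 alone was called by edgeR and by DESeq2. Introns held 13.1, 8.89, 7.08 and 10.4% of the gene's reads in infants, against 16.7, 18.96 and 14.6% in adults, and this share did not overlap either, again beside 6.35% of the genes tested in introns.

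The call for Pmaip1 depended on which libraries entered. Without infant 2 it stood, at a log2 fold change of -1.22 (adjusted p = 0.0270 by edgeR). Leaving out infant 3, infant 4, adult 2 or adult 3 gave adjusted p of 0.0897, 0.121, 0.196 and 0.118 by edgeR, with log2 fold changes of -0.96, -1.10, -1.01 and -1.16. Those fits called 1, 6, 1 and 2 genes of all, against 52 with every library. Beside it, the immediate-early and heat-shock genes, which respond within minutes to stimulation or handling, summed to 4377 to 5917 CPM in infants and 8604 to 9254 CPM in adults, with 15 of 18 tested genes lower at an unadjusted p under 0.05 and 0 called by edgeR. Their part in the Pmaip1 difference was not tested.

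**Figure D4:**
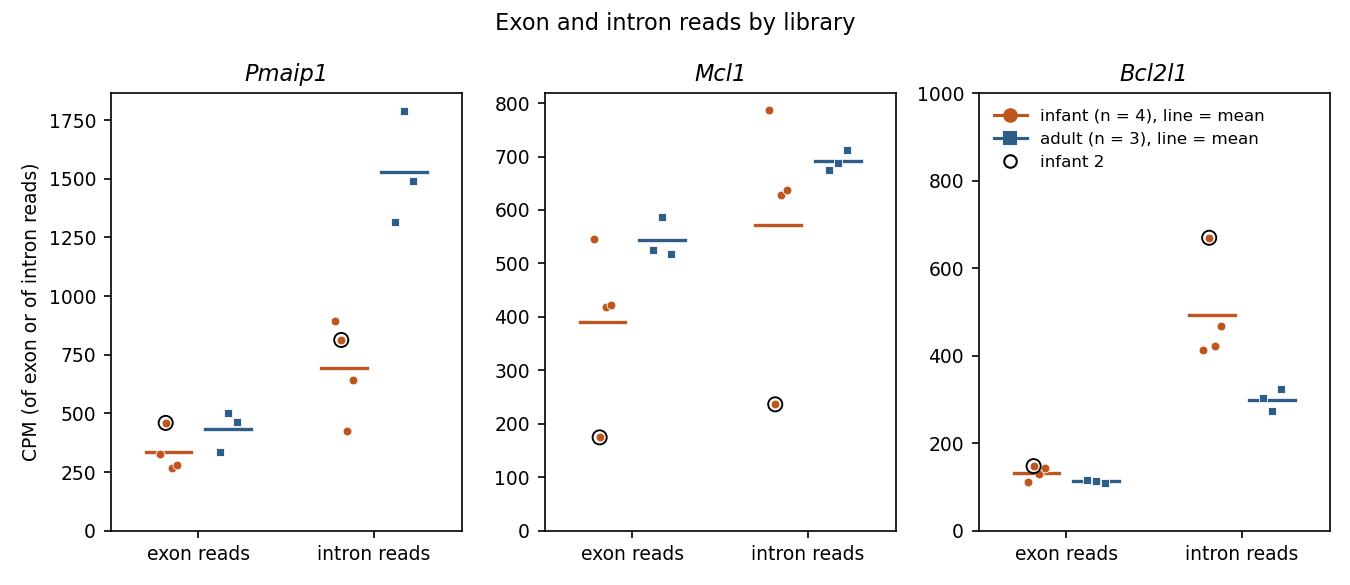
Exon and intron reads of Pmaip1, Mcl1 and Bcl2l1 by library, each in CPM of its own kind of read, with infants in orange to the left of adults in blue, lines at the means and infant 2 circled. The intron reads of Pmaip1 lie at 427 to 895 CPM in infants and 1315 to 1788 CPM in adults, while the exon reads of all 3 genes overlap.

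Ratios between members were also taken within each library. Of the 45 RPKM ratios that the 10 members form, 16, or 35.6%, had infant and adult ranges that did not overlap, where 14.6% of all pairs of tested genes did. The pairs share genes and libraries, and Bcl2a1b and Bcl2a1d, which are nearly the same gene, each enter them. The ratios are thus a description and carry no test. Bax over Pmaip1 lay at 1.10 to 1.51 in infants and 0.645 to 0.958 in adults. Mcl1 over Bax lay at 0.264 to 1.17 in infants and 1.23 to 1.41 in adults. The ratio of Bcl2l11 to Bbc3 was 0.223 to 0.679 in infants and 0.686 to 1.39 in adults, nearly touching. These ratios were picked from those that did not overlap. The ratio of Mcl1 to Pmaip1 did overlap, at 0.294 to 1.29 in infants and 0.864 to 1.21 in adults. So did that of Bcl2 to Bcl2l11, at 0.0402 to 0.0598 in infants and 0.0586 to 0.0834 in adults.

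Summed over roles, the levels overlapped between the ages. The 5 survival members together had 2813, 1764, 2724 and 2614 RPKM in infants, against 2415, 2558 and 2563 RPKM in adults, and the Bcl2a1 copies made up 93.7 to 95.8% of that in infants and 92.7 to 93.5% in adults. Reads that were not unique numbered nearly alike for Bcl2a1b and Bcl2a1d (ratio 0.884 to 0.979 in infants and 0.9299 to 0.978 in adults), so the sum may hold shared reads more than once. Bcl2, Bcl2l1 and Mcl1 together had 179, 73.6, 139 and 146 RPKM in infants, against 168, 188 and 167 RPKM in adults. The 5 death members together had 267, 338, 248 and 251 RPKM in infants, against 247, 311 and 298 RPKM in adults, of which Bax and Pmaip1 made 93.9 to 95.8% in infants and 94.5 to 95.6% in adults. Infant 2 had the lowest survival sum and the highest death sum of the 7 libraries, a ratio of 5.22 where the other infants lay at 10.4 to 11.0 and the adults at 8.23 to 9.80. In infant 2 long transcripts were also lower: against the other infants, the median log2 difference was -0.14 over the third of tested genes with the longest exons and 0.12 over the third with the shortest, and the part of length in the values of infant 2 was not tested.

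The wider apoptosis pathway was measured through 85 further genes in 6 lists, of which 76 could be tested in exon reads. None passed by edgeR (0 of 76, with 16 at an unadjusted p under 0.05 beside 13.3% of all genes), and DESeq2 called 1, Birc5. Groups did not overlap for 10 genes with infants above and 4 with adults above, beside 7.97% and 7.58% of all genes, or 15.5% in either direction. Over the 76 genes the median was 0.03 on the log2 scale.

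The list of other BCL2 family genes had 12 of 16 tested genes above 0 and a median of 0.26 on the log2 scale. At an unadjusted edgeR p under 0.05 it had 5 genes, all higher. The list also holds genes outside the family: Vdac1, Vdac2, Vdac3, Tmbim6 and Bclaf1, at 0.60, 0.32, 0.23, 0.36 and 0.05. All of these lay above 0, so the median is not that of family genes alone. Bad, a BH3-only gene controlled by growth factor signals, averaged 56.2 ± 15.4 CPM in infants and 37.5 ± 1.28 CPM in adults (SD, n = 4 and 3), a log2 fold change of 0.58 (adjusted p = 0.307 by edgeR). Its 4 infant libraries, at 45.0, 78.4, 54.6 and 46.7 CPM, all lay above the adults, with infant 2 highest, and without it the log2 fold change was 0.38. Bcl2l12 had a log2 fold change of 0.43 and Bnip3l, a receptor for the removal of mitochondria, of 0.30, and neither gene's groups overlapped (adjusted p = 0.359 for both by edgeR). Bcl2l10 and Hrk had 0 reads in every library, and Bok at most 5.

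Downstream of the mitochondria, Apaf1 and Casp9, the scaffold and the protease of the apoptosome, were both lower in every infant library. Apaf1 averaged 22.5 ± 4.65 CPM in infants and 33.7 ± 1.45 CPM in adults (log2 fold change -0.58 with SE 0.17 and edgeR adjusted p = 0.284). Casp9 averaged 69.0 ± 2.67 CPM in infants and 87.8 ± 5.26 CPM in adults (log2 fold change -0.35 with SE 0.11 and edgeR adjusted p = 0.298). Casp6, an executioner caspase, had a log2 fold change of 0.53 with groups that overlapped, and of 0.20 without infant 2. The list of 13 had a median of 0.13.

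Among 8 inhibitors of apoptosis, 7 had a log2 fold change below 0, and the exception was Birc5, survivin, which is also a gene of mitosis. Those of Birc2, Birc3 and Birc6, at -0.04, -0.01 and -0.06, lay within their standard errors of 0. At an unadjusted edgeR p under 0.05, 0 genes of the list were lower. The median over all genes was 0.0016, so signs below 0 were common. Birc5 had 12.1, 20.03, 14.7 and 19.9 CPM in infants, against 9.07, 6.85 and 6.18 CPM in adults. Every infant lay above every adult, with a log2 fold change of 1.18 (with SE 0.24 and edgeR adjusted p = 0.197 and 0.0018 in DESeq2). Cflar, the decoy of caspase-8, lay lower in every infant library with a log2 fold change of -0.28 (adjusted p = 0.412 by edgeR), and Naip5 at -0.43 (-0.27 without infant 2) had groups that overlapped (adjusted p = 0.479).

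For the 10 tested death receptors and adaptors the median was 0.10 on the log2 scale. Fadd, the adaptor of death receptors, averaged 12.3 ± 0.906 CPM in infants and 8.70 ± 1.48 CPM in adults (SD, n = 4 and 3), and Ripk3, the kinase of necroptosis, 27.6 ± 3.95 CPM in infants and 21.4 ± 0.637 CPM in adults. Both lay higher in every infant library (log2 fold changes 0.50 and 0.37, adjusted p = 0.327 and 0.357 by edgeR). Tnfrsf10b, a death receptor for TRAIL, was rare, at 2.05 ± 0.776 CPM in infants and 0.990 ± 0.3997 CPM in adults.

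The p53 list, p53 and targets other than the members Bbc3, Pmaip1 and Bax, had a median of -0.04 over 16 tested genes. Perp, a membrane protein induced by p53, averaged 10.1 ± 3.79 CPM in infants and 4.48 ± 1.82 CPM in adults (log2 fold change 1.18, adjusted p = 0.295 by edgeR). Sesn2, a stress-induced regulator of growth, had a log2 fold change of 0.38 (adjusted p = 0.331), and both lay higher in every infant library. Btg2, which is also on the immediate-early list, had a log2 fold change of -1.08 (adjusted p = 0.333) that leaving out adult 2 moved to -0.26.

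Of the 13 tested regulators of BIM and MCL1, Zfp36 stood out in size. Zfp36 encodes TTP, which destabilizes short-lived mRNAs, and had 523, 131, 295 and 341 CPM in infants, against 491, 1248 and 1082 CPM in adults. Only infant 1 reached the adult range, and the log2 fold change was -1.54 (with SE 0.41 and edgeR adjusted p = 0.263). Its relative Zfp36l1 lay lower in every infant library (log2 fold change -0.42, adjusted p = 0.337), and Mapk3, which encodes the kinase ERK1, higher in every one (0.34, adjusted p = 0.337 by edgeR). The list's median was -0.16.

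**Figure D5:**
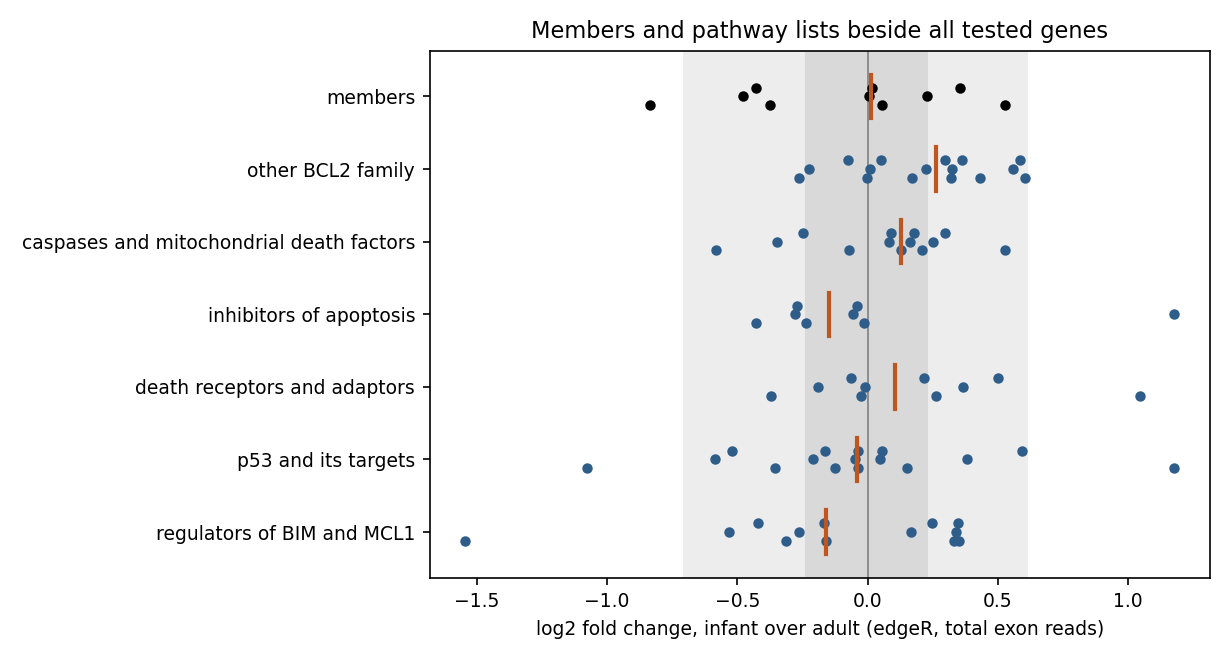
Fold changes on the log2 scale, infant over adult, of the 10 members and of the tested genes of 6 pathway lists, from edgeR on total exon reads, with orange bars at the medians. Grey bands hold the middle 50% and 90% of all 12261 tested genes, at -0.24 to 0.23 and -0.70 to 0.61. The median of the list of other BCL2 family genes, which also holds the Vdac genes, Tmbim6 and Bclaf1, is 0.26 and that of the members 0.01.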

How the data were processed

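RNA of CD11b+ migratory dendritic cells sorted from lymph nodes was measured in 7 libraries, 4 infant and 3 adult, grouped by the age in the labels. The deposited tables, 1 per library, hold whole read counts per gene made by the authors, which the file headers divide by place (exon, junction between exons, intron) and by total or unique mapping, without naming a strand. They also hold the authors' RPKM, which equals total exon reads per exon length on 1 constant per file. The submitters' processing notes give mm10 as the build and list Cuffdiff 2.2.1, Cuffnorm 2.2.1, Cufflinks 2.2.1.0, TopHat, and TopHat2 2.0.14 and 2.1.0, without stating what each did. The counting program, annotation and strand setting: not given in the sources used here.

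Total exon read counts of all genes went through filterByExpr by group and TMM scaling into edgeR 4.0.16 under R 4.3.3 (glmQLFit with robust estimation, glmQLFTest), with Benjamini-Hochberg adjustment across the whole table and a threshold of 0.05. The Bcl2a1 copies were read from the same fit on unique exon reads (11752 genes tested, 0.017% called by edgeR), and intron reads were fitted likewise (9602 genes). Fold changes are infant over adult, standard errors are the log2 fold change over the square root of F, and CPM use TMM-scaled sizes. Shares of the Bcl2a1 copies were compared by an exact permutation test (scipy 1.17.1). Alternatives were DESeq2 1.42.0, limma-voom (limma 3.58.1) with and without library weights, other scaling and filters, a fit that was not robust, a replicate block, and each library left out. Tests were tried on simulated counts. Depth limits precision: 3 reads equal 0.134 to 0.166 CPM, which covers counting error only. Libraries of 1 group differed by more than counting error (chi-square over its degrees of freedom 17.6 to 149).

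Named genes were the 10 members, the 3 genes with the smallest edgeR p of each pathway list, and the 3 genes most like the member with the smallest p. Members and lists were chosen with earlier results of these data known. Sequences are from GENCODE M21 (GRCm38).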

Additional observations from a re-analysis of the deposited data

How the results depend on the processing

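Over 35 gene-level results, 655 alternative values were computed, of which 621 kept their direction and side of the threshold, 25 turned sign, 6 lost a call and 3 gained one. The members called in exon reads stayed at 0 under every alternative run. DESeq2 and limma-voom with library weights each called 1 gene of the pathway lists, Birc5, where edgeR called 0. Replicate numbers pair nothing in the labels, and same-numbered libraries correlated at 0.033, -0.035 and 0.101 in their deviations. With the replicate block, 0 members were called in intron reads, against 1 as reported (Pmaip1, adjusted p = 0.0821 by edgeR). Without a filter the count was 2, with Bcl2l1 added. Without infant 2 and adult 3 it was 0, and leaving out 1 library gave 0 to 1. Members with groups that did not overlap numbered 2 as reported, and 2 to 6 with 1 library left out. The signs that turned were those of small estimates. Bcl2a1b had 0.041 with library weights, 0.0073 in total reads, 0.12 without infant 2 and adult 3, and -0.086 to 0.076 leaving out 1 library. Bcl2a1d had 0.0029 with RLE scaling, 0.0026 at 5 CPM in 3 libraries, 0.0029 in DESeq2, 0.045 with library weights, 0.054 in total reads, 0.11 without both, and -0.062 to 0.093 leaving out 1. Bak1 had -0.022 without scaling, -0.0020 without a filter, 0.28 without both, and -0.13 to 0.26 leaving out 1. In introns, Bcl2 had 0.34 without both and -0.79 to 0.25 leaving out 1, Mcl1 0.0043 without both and -0.47 to -0.013 leaving out 1, and Bax -0.40 without both and -0.28 to 0.056 leaving out 1. The cause was not tested. Intron fits, the shares of copies, the count of groups that did not overlap and the fit without both libraries were chosen after seeing the data. With 4 and 3 libraries of unknown origin and shared reads among the Bcl2a1 copies, small changes of a member remain undetectable here.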
